A study of Mus musculus with 12 samples.

Results

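Regulatory T cells (Treg) of the mouse thymus that carried no tdTomato label were compared with conventional CD4+ T cells (Tconv) that had been made shortly before the cells were collected. Messenger RNA of 6 sequencing libraries was compared, of 12 in the whole series: 3 of CD4+tdTomato–GFP+ cells (tdTomato– Treg) and 3 of CD4+tdTomato+GFP–CD73– cells (Tconv). They were chosen by their labels and by the deposited table that holds both groups, and 12957 of the 13207 genes of the series had values in all 6. Both groups came from thymus of mice whose genotype is given as C57BL/6, 7 days after tamoxifen at 10 μg per g of body weight. GFP stands for Foxp3 expression and tdTomato for cells labelled through the tamoxifen treatment. The sources used here give neither the driver of that label nor the ages of the mice. The Tconv gate excluded CD73 and the Treg gate did not sort on it, so the groups differ in tdTomato, in GFP and in the use of CD73, and effects of these 3 cannot be told apart. Each group has libraries A, B and D. Whether the 3 libraries of a group stem from different mice is not stated, so a p-value here weighs a difference against a spread between libraries that may be technical.

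Treg are CD4+ T cells that restrain immune responses. Their identity depends on the transcription factor Foxp3, on a high-affinity receptor for interleukin-2 (IL-2) whose signal passes through the kinases Jak1 and Jak3 to the factors Stat5a and Stat5b, and on strong T cell receptor signals during their development. Treg arise in the thymus, and mature Treg can also return to it from the periphery. Conventional CD4+ thymocytes pass from an immature stage, after selection, to a mature stage at which they leave through chemokine and sphingosine phosphate receptors.

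Levels are log2 CPM, that is, read counts relative to the size of a library, and a change is the log2 fold change of tdTomato– Treg minus Tconv with its standard error (SE), so that a positive value is higher in Treg. A gene is said to have risen or fallen when its adjusted p (limma, Benjamini-Hochberg over 11027 genes tested) was under 0.05. That fit did not pair libraries by the letters A, B and D. The lowest values of each library gave effective depths of 13600000 to 21400000 counts, at which 3 counts correspond to a log2 CPM of -2.61 to -1.96, for counting error only. Rank correlations of levels were 0.993 to 0.996 within groups and 0.948 to 0.952 between groups. A single gene, Lars2, the mitochondrial leucyl-tRNA synthetase, held 30.8 to 32.4% of the summed CPM of the Treg libraries, 26.7 and 27.4% of Tconv A and D and 16.1% of Tconv B, while no other gene held over 0.792%. Of the list members named below, those beyond the 4 with the smallest p in each direction were named after their values were seen, except in lists of at most 15.

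The genes of the sort followed the gates. Foxp3 (chrX:7573644-7595245, plus strand, mm10) was at 9.09, 9.16 and 9.07 in Treg A, B and D and at 0.88, 0.42 and -0.77 in Tconv. The change was 8.93 (SE 0.25), or 488-fold. Nt5e, which encodes CD73, was at 8.21, 8.19 and 8.24 in Treg and at 3.99, 3.96 and 3.69 in Tconv, a change of 4.33 (SE 0.09). Both groups held Cd4, at a mean of 8.44 ± 0.03 (SD, n = 3) in Treg and 9.28 ± 0.12 in Tconv. Foxp3 and Nt5e differ through the gates and are given as a check of the labels only.

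The change between the groups touched much of the transcriptome and was steeper in one direction. Of all genes tested, 52.6% passed the threshold: 2920 (26.5%) were higher in tdTomato– Treg and 2877 (26.1%) were lower, and the median change over all genes was -0.01. The values of the groups did not overlap for 61.3% of genes. Counts of list members below are to be read against these shares. The median change was 0.78 among genes that rose and -0.44 among genes that fell. Beyond 2-fold there were 1214 genes higher and 465 lower, beyond 4-fold 648 and 119, and beyond 16-fold 245 and 16. Genes of low mean level leaned the same way: of 344 tested genes with a mean log2 CPM under 0, 241 were higher and 36 lower, and such genes could pass the filter through the group where they were high. Genes with a mean from 6 to 8 numbered 584 higher and 879 lower. Of the 5230 genes that did not pass, 3488 had a 95% interval of the change that lay within 0.5 of 0, and 1742 had a wider one.

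**Figure D1:**
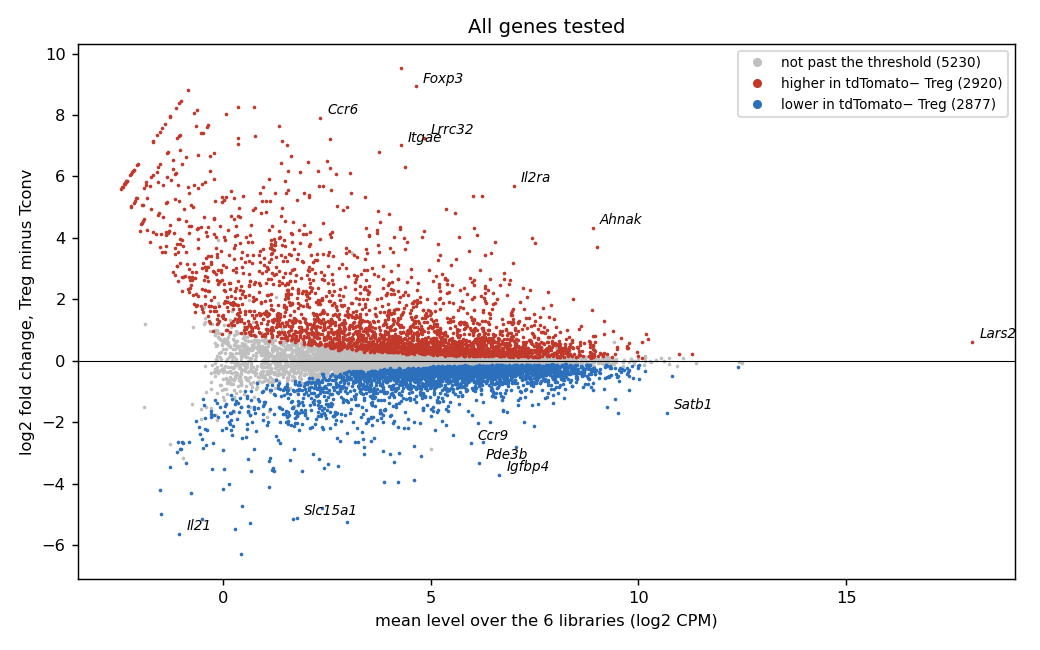
Change of every tested gene (vertical axis, log2 fold change, tdTomato– Treg minus Tconv) against its mean level over the 6 libraries (horizontal axis, log2 CPM). Red points are the 2920 genes that were higher, blue points the 2877 that were lower and grey points the 5230 that did not pass; the red points reach further from 0 than the blue ones.

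The core Treg genes were higher in tdTomato– Treg. Of 23 genes listed as Treg identity genes, all 23 were tested and rose, by a median of 4.33 against -0.01 over all genes. These include Foxp3 and Nt5e, which the gates set. Without them 21 of 21 rose, by a median of 4.01. This list, like the others, was chosen with earlier results of these data known, so its count is a description only. Lrrc32 (chr7:98489283-98502181, plus strand), which encodes GARP, the surface docking protein for latent TGF-β, was at 8.57, 8.48 and 8.35 in Treg and at 1.06, 1.18 and 1.37 in Tconv. It was 154-fold higher (7.26, SE 0.09, adjusted p = 1.8e-18). Il2ra (chr2:11642807-11693193, plus strand), the α chain of the IL-2 receptor, was at 9.80, 9.90 and 9.84 in Treg and at 4.36, 4.04 and 4.04 in Tconv, a 52.0-fold difference (5.70, SE 0.08). In both genes every Treg library lay far above every Tconv library.

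The remaining identity genes differed in how far Tconv held them too. Itgae, the integrin chain CD103, was at a mean of 7.79 ± 0.07 in Treg and 0.78 ± 0.02 in Tconv. Ikzf2, which encodes Helios, had a high level in both groups, 10.87 ± 0.05 and 7.15 ± 0.16, and changed by 3.72 (SE 0.07). Its relative Ikzf4, which encodes Eos, changed by 2.67 (SE 0.05). Nrp1, a surface marker of thymus-derived Treg, changed by 5.37 (SE 0.10), and Ctla4, the inhibitory receptor that binds CD80 and CD86, by 3.87 (SE 0.12). Coro2a, a coronin of the actin cytoskeleton, changed by 6.31 (SE 0.12). The list ended with Izumo1r, the folate receptor family protein FR4, at 2.04 (SE 0.07), so that even its smallest change was 4.10-fold.

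**Figure D2:**
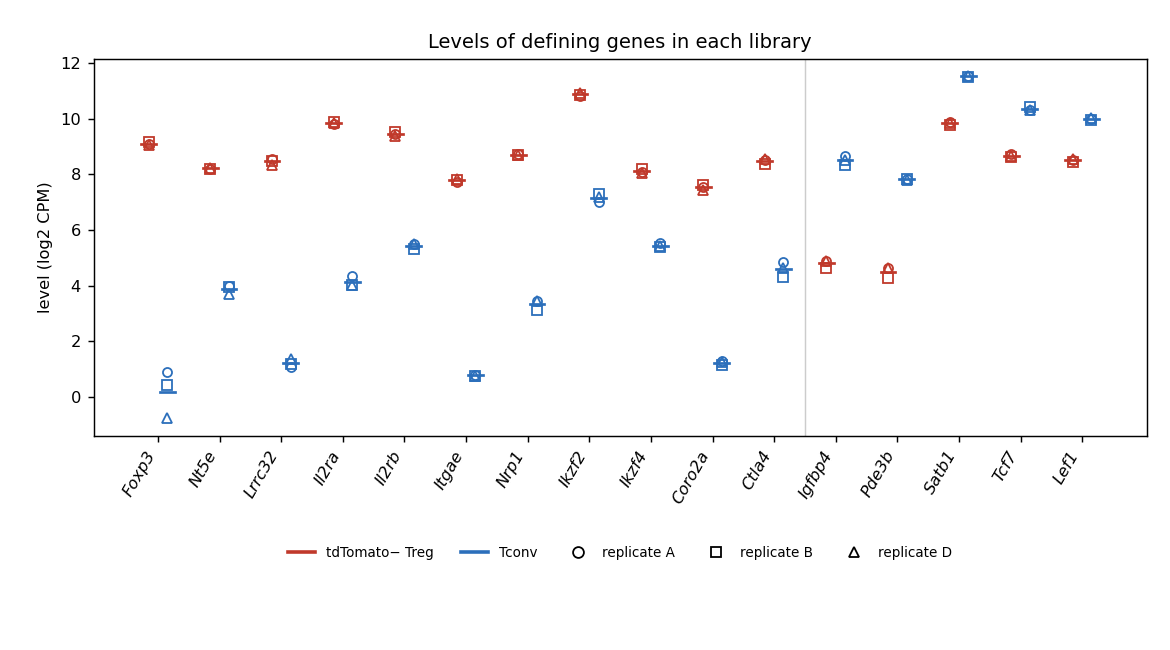
Levels (vertical axis, log2 CPM) of 16 genes in each of the 6 libraries, with Treg in red, Tconv in blue, a symbol for each replicate and a bar for each mean. In all 16 the groups do not overlap, which holds for 61.3% of all genes tested. The first 11 genes are higher in Treg and the last 5 higher in Tconv.

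Genes known from effector and tissue-resident Treg were largely higher as well. Of 42 tested members of that list, of 44 with values, 38 rose, 1 fell and 3 did not pass, with a median of 3.05. Ahnak, a very large scaffold protein, was at 11.03, 10.96 and 11.18 in Treg and at 6.84, 6.59 and 6.78 in Tconv (4.32, SE 0.07). Ccr6, the receptor for CCL20, was at 6.22, 6.41 and 6.24 against -0.88, -1.96 and -2.0, a change of 7.90 (SE 0.22). Itgb8, the integrin chain that helps to activate latent TGF-β, changed by 6.79 (SE 0.20) and Rora, a nuclear receptor of tissue Treg, by 2.22 (SE 0.06). Id2, an inhibitor of helix-loop-helix factors, fell by 1.49 (SE 0.11). With quantile normalisation 3 genes of the list fell in place of 1.

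Products that Treg secrete were measured too. Il10 was at 1.89, 1.79 and 2.02 in Treg and at the level of 0 counts in the Tconv libraries (-5.13, -5.42 and -5.17). Gzmb, which encodes granzyme B, was at 3.06 ± 0.36 in Treg and -0.72 ± 0.54 in Tconv. Lgals3 (-0.44, SE 0.44, adjusted p = 0.427) and Vim (-0.04, SE 0.07, adjusted p = 0.642) did not pass, and the 95% interval for Vim, from -0.18 to 0.10, limits any difference to a small one. Cxcr6 did not pass (-0.65, SE 0.45, adjusted p = 0.243), but passed as lower with an adjusted p of 0.0379 in a fit to the 6 libraries alone and 0.0383 with the letters also as a block.

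The 2 groups could hold different shares of cells at several stages. In bulk libraries, more cells of a type and more RNA per cell cannot be told apart, and this holds for every gene group here. Of 12 markers of activated and memory T cells, which overlap with the effector list, 9 rose and 1 fell. Among these markers 83.3% passed, against 52.6% of all genes. Cd44 was at 7.61 ± 0.06 in Treg and 5.59 ± 0.04 in Tconv (2.02, SE 0.06), and S100a4, a calcium-binding protein of memory cells, at 4.74 ± 0.11 and -0.60 ± 0.59.

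A group of 30 genes had a log2 CPM of at least 2 in all 3 Treg libraries and lay at or under the 3-count level in all 3 Tconv libraries, while no gene showed the opposite pattern. Bicd1, a dynein adaptor, was at 4.81, 4.87 and 4.96 in Treg, at least 158-fold above the Tconv limit. Il1r2, the decoy receptor for interleukin-1, was at 4.31, 4.58 and 4.58, at least 121-fold higher, and Cd80, a ligand of CD28 and CTLA-4, was at least 85.7-fold higher. Gbp2b, a guanylate-binding protein, was at least 63.8-fold higher, and Gpr15, a homing receptor of colon Treg, at least 59.1-fold higher. Fam160a1, Igsf9b and Arnt2 complete the 8 of highest level, at least 91.6-fold, 59.9-fold and 57.6-fold higher. These bounds set the mean of the 3 Treg libraries against the mean 3-count level of the 3 Tconv libraries. They hold for the group means and not for single libraries.

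The IL-2 receptor pathway moved unevenly from receptor to factor. Of its 7 genes 5 rose and 2 fell. The 2 inducible chains rose, Il2ra as above and Il2rb from 5.44 ± 0.10 to 9.45 ± 0.07 (4.01, SE 0.06). The shared γ chain Il2rg fell by 0.30 (SE 0.05), and the kinase Jak1 fell too (-0.30, SE 0.04). Jak3 rose by 1.01 (SE 0.10), Stat5a by 1.22 (SE 0.06) and Stat5b by 0.37 (SE 0.05). The genes that STAT5 is known to induce were mostly higher: of 15, 11 rose, 2 fell and 2 did not pass, with a median of 1.12. Cish, a feedback inhibitor of cytokine receptors, was at 7.72, 7.75 and 7.63 in Treg and at 4.1, 3.9 and 4.4 in Tconv, 11.8-fold apart (3.57, SE 0.09). Pim1, a survival kinase, rose by 2.87 (SE 0.08) while its relative Pim2 fell by 1.09 (SE 0.09). Of the feedback inhibitors, Socs2 was at 4.95, 5.08 and 4.92 against -2.81, -0.56 and -1.71, Socs3 rose by 2.07 (SE 0.11) and Socs1 by 1.12. Bcl2, a survival gene, changed by -0.13 (SE 0.05, adjusted p = 0.0449). That call was lost when Tconv A (-0.08, adjusted p = 0.239) or any of the 3 Treg libraries was left out.

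STAT factors bind the letters TTCNNNGAA, and Cish, Socs3 and Tnfrsf18 are shown because each rose and has such a match near its start. The sequences are from RefSeq promoters on GRCm38.p6, written 5′ to 3′ on the strand of the gene with the matches in capitals. Cish is chr9:107296619-107296688 (plus strand), 40 bases before the start and 30 after it, Socs3 is chr11:117969367-117969616 (minus strand) and Tnfrsf18 is chr4:156026072-156026321 (plus strand), the last 2 with the 250 bases before the start.
Cish: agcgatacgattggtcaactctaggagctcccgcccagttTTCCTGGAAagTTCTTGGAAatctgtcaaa
Socs3: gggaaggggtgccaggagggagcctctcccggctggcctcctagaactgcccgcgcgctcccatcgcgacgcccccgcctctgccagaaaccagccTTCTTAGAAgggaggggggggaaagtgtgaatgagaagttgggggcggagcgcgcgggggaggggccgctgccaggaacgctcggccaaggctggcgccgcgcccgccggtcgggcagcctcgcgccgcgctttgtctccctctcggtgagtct
Tnfrsf18: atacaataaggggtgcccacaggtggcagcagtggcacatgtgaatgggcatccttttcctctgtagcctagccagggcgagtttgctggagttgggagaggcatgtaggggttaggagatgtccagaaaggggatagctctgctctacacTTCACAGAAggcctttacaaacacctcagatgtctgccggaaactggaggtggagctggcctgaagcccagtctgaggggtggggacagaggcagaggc
The letters read the same on both strands. Cish has 2 matches, Socs3 has 1 that begins 154 bases before the start and Tnfrsf18 has 1 that begins 99 bases before it. In windows of 300 bases, 250 before and 50 after a start, a match was present for 8.48% of the 8739 tested genes with a promoter in the table, for 8.92% of those that rose and 7.28% of those that fell. Counted by promoter and not by gene, a match was present in 6.99% of the promoters of tested genes and in 8.3% of all promoters in the table. It was found for 3 of 12 STAT5 targets, 3 of 16 Treg identity genes, 3 of 33 effector and tissue Treg genes, 2 of 15 naive genes and 2 of 14 immature thymocyte genes. A match is a description of letters and not a binding site.

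Costimulatory receptors of the TNF receptor superfamily and the NF-κB factors they act through were higher. Of 15 tested receptors, of 19 with values, 12 rose, 1 fell and 2 did not pass, with a median of 0.70. Tnfrsf4 (OX40) was at 7.25, 7.44 and 7.11 in Treg and at 3.89, 4.02 and 3.91 in Tconv, a 10.0-fold difference. Tnfrsf18 (GITR) rose by 2.69 (SE 0.08), Tnfrsf1b, the second TNF receptor, by 2.36 (SE 0.07), Tnfrsf9 (4-1BB) by 2.18 (SE 0.06) and Cd27 by 0.41 (SE 0.05). Tnfrsf1a, the first TNF receptor, fell by 0.83 (SE 0.14). The count of receptors that fell was 3 in place of 1 in fits with the letters as a block and in the fit to the 6 libraries alone.

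Of 27 NF-κB pathway genes 21 rose, 2 fell and 4 did not pass, with a median of 0.56. All 5 subunits rose: Rel by 1.43 (SE 0.05), Nfkb2 by 1.42 (SE 0.07), Nfkb1 by 0.77 (SE 0.04), Relb by 0.70 (SE 0.09) and Rela by 0.56 (SE 0.09). Among inhibitors, Nfkbia was at 7.67 ± 0.11 in Treg and 6.30 ± 0.10 in Tconv. Traf1, an adaptor of TNF receptors, rose by 1.51 (SE 0.08). Map3k14, the kinase that starts the non-canonical branch, fell by 0.37 (SE 0.09), and the adaptor Traf4 fell by 0.30 (SE 0.08).

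Genes of proximal T cell receptor (TCR) signalling were mostly lower in Treg, while many genes that TCR signals induce were higher. Of 34 proximal signalling genes 22 fell, 5 rose and 7 did not pass, with a median of -0.36. Themis, which tunes TCR signals during selection, was at 6.87, 6.88 and 6.92 in Treg and at 8.28, 8.31 and 8.27 in Tconv (-1.40, SE 0.06). The CD3ζ chain gene Cd247 fell by 0.80 (SE 0.05). The other CD3 chains, Lck and the adaptor Lat fell too, with Cd3e at -0.37 (SE 0.05), Lck at -0.35 (SE 0.05) and Lat at -0.72 (SE 0.06). Zap70 did not pass (-0.10, SE 0.11, adjusted p = 0.45).

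The 5 proximal genes that rose encode proteins known to dampen TCR signalling. They are the phosphatases Ubash3b (1.21, SE 0.09) and Ptpn22 (0.51, SE 0.06), the adaptor Sla (0.46, SE 0.06) and the ubiquitin ligases Cblb (0.72, SE 0.09) and Cbl (0.20, SE 0.05). Other negative regulators moved otherwise: Ptpn6 (-0.83), Csk (-0.37) and Dgka (-0.22) fell, and Ubash3a (0.08) and Dgkz (0.07) did not pass.

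Of 23 tested TCR-induced genes 14 rose, 3 fell and 6 did not pass, with a median of 0.48. Bhlhe40, a transcriptional repressor, was at 7.14, 6.78 and 6.98 against 2.77, 2.53 and 2.93 (4.22, SE 0.15), and Spry1, a feedback inhibitor of Ras signalling, rose by 3.37 (SE 0.13). Members often read as gauges of TCR signal strength went different ways. Nr4a3 rose by 0.91 (SE 0.06), Nr4a1 did not pass (0.25, SE 0.14, adjusted p = 0.139) except with the letters as a block over 12 libraries (adjusted p = 0.00378) or over 6 (adjusted p = 0.0132), or without Tconv D (0.40, adjusted p = 0.0196), and Cd5 was at 8.49 ± 0.02 in Treg and 8.51 ± 0.05 in Tconv, with a 95% interval of the change from -0.14 to 0.10. Egr2 did not pass (0.12, SE 0.10) except without Tconv B (0.25, adjusted p = 0.0273), while Egr1 (-0.32, SE 0.08) and its corepressor Nab2 (-0.74, SE 0.08) fell. Cd40lg, the helper T cell ligand for CD40, was at 2.43, 2.55 and 2.56 in Treg and at 5.37, 5.75 and 5.56 in Tconv, 8.26-fold lower (-3.05, SE 0.16).

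Costimulatory and inhibitory receptors of the immunoglobulin family and their ligands gave 19 higher, 2 lower and 6 not passed of 27, with a median of 0.91. Cd200 rose by 1.70 (SE 0.06), Icos by 1.39 (SE 0.06) and Slamf1 by 1.21 (SE 0.06). Pdcd1, the inhibitory receptor PD-1, was at 4.89 ± 0.16 in Treg and 3.05 ± 0.05 in Tconv. Tigit was at 4.88, 5.09 and 5.06 in Treg and at -1.67, -3.10 and -1.71 in Tconv. Cd28, the main costimulatory receptor, fell by 0.75 (SE 0.07). Cd84 changed by -0.17 (SE 0.06, adjusted p = 0.0203), a call lost when Treg A (-0.13, adjusted p = 0.104), Treg B (-0.14, adjusted p = 0.0789) or Tconv B (-0.14, adjusted p = 0.073) was left out.

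**Figure D3:**
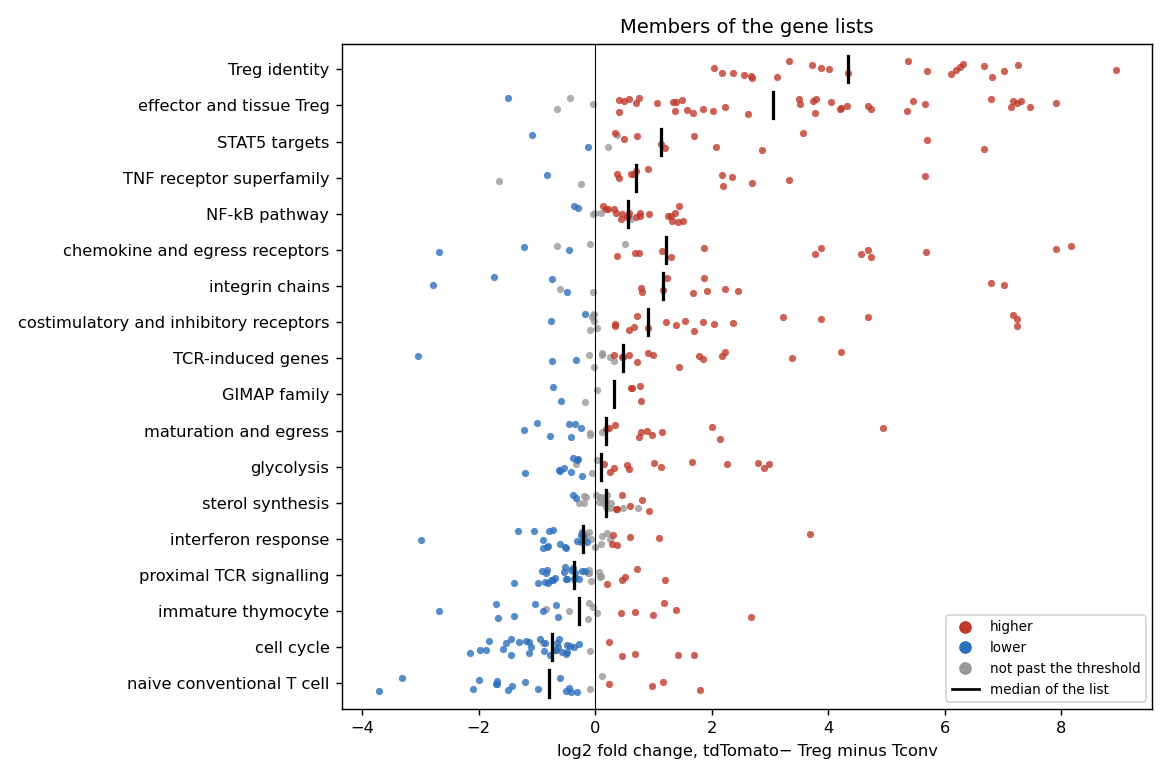
Changes (horizontal axis, log2 fold change, tdTomato– Treg minus Tconv) of the tested members of 18 gene lists, each point a gene, red where higher, blue where lower and grey where the threshold was not passed, with a black bar at the median of the list. Medians run from 4.33 for the Treg identity genes to -0.79 for the naive conventional T cell genes.

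Tconv held higher levels of most naive T cell genes. Of 22 listed genes 16 fell in tdTomato– Treg, 4 rose and 2 did not pass, with a median of -0.79. Igfbp4 (chr11:99041244-99054392, plus strand), a binding protein for insulin-like growth factors and a marker of recently made naive cells, was at 4.88, 4.64 and 4.88 in Treg and at 8.66, 8.35 and 8.52 in Tconv. It was 13.1-fold lower in Treg (-3.71, SE 0.09, adjusted p = 1.6e-15). Pde3b, which breaks down cyclic AMP, was at 4.62, 4.26 and 4.62 against 7.85, 7.82 and 7.79 (-3.32, SE 0.15). Each of these genes separated the groups with no overlap, as did 61.3% of all genes tested.

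Several transcription factors of the naive list fell as well. Satb1, a chromatin organiser of thymocytes, was at 9.88, 9.77 and 9.86 in Treg and at 11.55, 11.51 and 11.53 in Tconv (-1.69, SE 0.05). Tcf7 (-1.68, SE 0.06), its relative Lef1 (-1.49, SE 0.05) and Bach2 (-0.60, SE 0.05) fell. Foxo1, which drives homing receptors in naive cells, rose by 0.24 (SE 0.06). Of the genes of lymph node homing and exit, Klf2 (0.11, SE 0.17, adjusted p = 0.61) and S1pr1 (-0.09, SE 0.05, adjusted p = 0.166) did not pass, and Ccr7 fell by 0.45 (SE 0.14, adjusted p = 0.013). S1pr1 passed as lower with the letters as a block over 12 libraries (adjusted p = 0.0409). The Ccr7 call was lost without Tconv A (-0.35, adjusted p = 0.0677) and without Treg D (-0.41, adjusted p = 0.0512). Art2b, an ecto-ADP-ribosyltransferase of mature T cells, rose by 1.79 (SE 0.08), and Il7r, the receptor chain for interleukin-7, fell by 0.42 (SE 0.10).

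Among 53 transcription factors of the T lineage 28 rose, 15 fell and 10 did not pass, with a median of 0.31. Without Foxp3, which the gate set, 27 of 52 rose, with a median of 0.27. The Ikaros family divided: Ikzf2 and Ikzf4 rose as above, Ikzf3 rose by 0.41 (SE 0.05) and Ikzf1 fell by 1.24 (SE 0.04), from 10.05 ± 0.01 in Tconv to 8.82 ± 0.06 in Treg. Hopx, a small homeodomain protein, was at 5.76, 5.85 and 5.66 against -0.61, -1.33 and -0.31. Gata3 rose by 0.49 (SE 0.05). Zbtb7b, which sets the CD4 lineage, fell by 0.76 (SE 0.06). Tox, a factor of selection, did not pass (-0.10, SE 0.05, adjusted p = 0.139) except without Treg D (-0.15, adjusted p = 0.0391).

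Immature thymocyte genes had no common direction. Of 20 tested, 8 fell, 6 rose and 6 did not pass (70% passed, against 52.6% of all genes), with a median of -0.28. Ccr9, the receptor that holds thymocytes to CCL25, was at 4.53, 4.79 and 4.56 in Treg and at 7.04, 7.59 and 7.28 in Tconv (-2.68, SE 0.14). Sox4 fell by 1.67 (SE 0.06). In the other direction Arpp21 rose by 1.19 (SE 0.26) and Rag1, a recombinase gene, rose by 1.38 (SE 0.40, adjusted p = 0.00868). Rag1 did not pass with a robust variance model (adjusted p = 0.0567). Cd69, an activation and retention gene, rose by 0.99 (SE 0.10), and Dntt did not pass (-0.04, SE 0.30).

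Genes of maturation and egress were also mixed, with 11 higher, 7 lower and 3 not passed of 21 and a median of 0.19. Of the 21, 85.7% passed, against 52.6% of all genes. H2-Q6, a class I gene of the Qa region, was at 7.81, 7.76 and 7.93 against 3.04, 2.78 and 2.88 (4.93, SE 0.13). It has close copies in that region, so its count depends on how shared reads were assigned. Ifngr1, the interferon-γ receptor chain, rose by 2.14 (SE 0.07) and Ly6e by 1.15 (SE 0.05). The Schlafen genes Slfn1 (-0.99, SE 0.07) and Slfn2 (-0.35, SE 0.06) fell. The GIMAP GTPases, which support T cell survival and sit in a single gene cluster, divided into Gimap7 (0.79), Gimap5 (0.77), Gimap1 (0.64) and Gimap3 (0.62), which rose, and Gimap6 (-0.72) and Gimap4 (-0.58), which fell. Of the 8 tested GIMAP genes 75% passed, against 52.6% of all genes. Gimap8 did not pass (0.03, SE 0.05). Gimap9 did not pass (-0.17, SE 0.09, adjusted p = 0.133), but passed as lower with the letters as a block over 12 libraries (adjusted p = 0.0285).

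Receptors for migration were mostly higher in Treg. Of 20 tested chemokine and egress receptors, of 24 with values, 14 rose, 3 fell and 3 did not pass, with a median of 1.22. Besides Ccr6 and Gpr15, Cxcr5, the follicle homing receptor, was at 5.18, 5.02 and 5.29 in Treg and at -0.49, -0.66 and -0.41 in Tconv, Cxcr4 changed by 1.15 (SE 0.12) and Ccr4, a receptor of medullary entry, by 0.69 (SE 0.16). Gpr183, the oxysterol receptor EBI2, fell by 1.21 (SE 0.11).

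Integrin chains gave 11 higher, 4 lower and 2 not passed of 17 tested, of 20 with values, with a median of 1.17. The share that passed was 88.2%, against 52.6% of all genes. Single chains moved in both directions. Itgb1 rose by 1.67 (SE 0.07), Itga6 by 1.17 (SE 0.07) and Itgav by 1.23 (SE 0.07), while Itgb2, the β chain of LFA-1, fell by 0.48 (SE 0.05). Itgb3 was at 5.72, 5.59 and 5.68 in Treg and at 8.47, 8.42 and 8.46 in Tconv (-2.79, SE 0.06). Thus Itgb8 rose and Itgb3 fell, and these are only some of the β chains that can pair with Itgav.

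The TGF-β pathway showed 9 genes higher, 9 lower and 3 not passed of 21 tested. Its median was -0.10, and 85.7% of its genes passed, against 52.6% of all genes. Its presenting and activating proteins rose, as given for Lrrc32, Itgb8 and Itgav, while Tgfb1, the ligand, did not pass (0.15, SE 0.07, adjusted p = 0.0862) except with the letters as a block over 12 libraries (adjusted p = 0.0185) or without Tconv D (0.20, adjusted p = 0.0399). The receptor Tgfbr1 was at 8.5, 8.53 and 8.56 in Treg and at 6.28, 6.24 and 6.2 in Tconv (2.29, SE 0.05). Tgfbr2 fell by 0.82 (SE 0.06), and Tgfbr3, the coreceptor betaglycan, was at 5.07, 4.78 and 4.98 against 7.64, 7.53 and 7.59 (-2.64, SE 0.10). Among the intracellular members, the inhibitor Smad7 rose by 0.36 (SE 0.11) and Smurf2, a ubiquitin ligase of the pathway, fell by 0.89 (SE 0.06). Smad3 changed by -0.19 (SE 0.06, adjusted p = 0.0145), a call lost without Tconv A (-0.17, adjusted p = 0.0614) and without Treg B (-0.17, adjusted p = 0.0581).

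Of 30 tested receptors for other cytokines, 19 rose, 6 fell and 5 did not pass, with a median of 0.44. Il1rl1, the receptor for interleukin-33, was at 4.35, 4.41 and 4.52 in Treg and at -2.81, -2.25 and -3.58 in Tconv. Its neighbour in the interleukin-1 receptor family, Il18r1, rose by 2.68 (SE 0.14), while Il1rl2, the receptor for interleukin-36, fell by 3.41 (SE 0.25). Il10rb rose by 1.63 (SE 0.09) and Il6ra by 0.35 (SE 0.07), and Ifngr2 fell by 0.63 (SE 0.07), against the rise of its partner Ifngr1. Of 22 tested cytokines and effector molecules 12 rose, 4 fell and 6 did not pass. Penk, the enkephalin precursor, was at 5.42, 5.43 and 5.32 against -0.61, 0.07 and 0.04, and Lta (lymphotoxin α) rose by 1.70 (SE 0.09) and Ltb by 1.05 (SE 0.07). Il21, a helper cytokine, was at 1.28, 2.29 and 1.75 in Tconv and under the 3-count level in every Treg library.

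In the purinergic and cyclic AMP list 11 genes rose, 5 fell and 5 did not pass of 21, with a median of 0.28. Of the 21, 76.2% passed, against 52.6% of all genes. Without Nt5e, 10 of 20 rose, with a median of 0.25. The enzymes that turn extracellular ATP into adenosine rose, Entpd1 (CD39) by 6.19 (SE 0.26) and Nt5e as set by the gates. P2rx7, the ATP-gated channel, rose by 2.66 (SE 0.09), and P2ry10 by 1.62 (SE 0.08). Besides Pde3b, Pde4d (-0.70, SE 0.05) and the protein kinase A subunit Prkacb (-0.66, SE 0.06) fell.

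The BCL2 family gave 8 higher, 2 lower and 6 not passed of 16, with a median of 0.30, and the 62.5% that passed is near the 52.6% of all genes. Those that rose included Bcl2l1 (BCL-XL; 1.20, SE 0.08), Bcl2a1b (2.02, SE 0.16), Mcl1 (0.16, SE 0.05), Pmaip1 (NOXA; 3.42, SE 0.24) and Bid (1.42, SE 0.13). Bcl2a1b has near-identical copies, and its count is uncertain for that reason. Bcl2l11, which encodes the death inducer BIM, changed by -0.20 (SE 0.07, adjusted p = 0.027). Without Tconv A, or without Treg B, neither Bcl2l11 nor Bcl2 passed, which leaves 0 in place of 2 genes lower, and Bcl2l11 was also lost without Tconv D (-0.17, adjusted p = 0.097).

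Proliferation genes were lower in tdTomato– Treg. Of 36 tested cell cycle genes 29 fell, 5 rose and 2 did not pass, with a median of -0.73. Top2a, the DNA topoisomerase of dividing cells, was at 5.43, 5.31 and 5.56 in Treg and at 7.26, 7.60 and 7.38 in Tconv (-1.98, SE 0.21). Mki67 was at 6.65, 6.61 and 6.80 against 7.63, 8.03 and 7.96 (-1.19, SE 0.22). Every Tconv library lay above every Treg library in both genes, and neither gene was absent from Treg.

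Genes of several phases fell, among them Mcm2 of the replicative helicase (-0.87, SE 0.10), Cdk2 (-0.77, SE 0.08), Ccna2 (-1.81, SE 0.34) and the spindle checkpoint kinase Bub1 (-2.15, SE 0.33). The 5 that rose were Cdkn1a (1.69, SE 0.61), Tk1 (1.42, SE 0.15), Cdk6 (0.68, SE 0.06), E2f2 (0.46, SE 0.08) and Cdkn1b (0.24, SE 0.05), of which Cdkn1a and Cdkn1b encode cell cycle inhibitors. Cdkn1a had low levels, 0.34 ± 0.29 in Treg, and its call was lost without Treg A (1.57, adjusted p = 0.0837), Treg B (1.66, adjusted p = 0.0693), Tconv B (1.5, adjusted p = 0.0897) or Tconv D (1.51, adjusted p = 0.085). Of 62 tested histone cluster genes, which include many near-identical copies of uncertain count, 47 fell, 0 rose and 15 did not pass, with a median of -0.89, by limma with Benjamini-Hochberg adjustment. Hist1h1b, a linker histone, fell by 1.53 (SE 0.16). Kinesin motors fell in 15 of 26 and rose in 5 (76.9% passed, against 52.6% of all genes), with a median of -0.41. The mitotic kinesin Kif11 fell by 1.90 (SE 0.26), and Kif13b, a transport kinesin, rose by 1.26 (SE 0.08).

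**Figure D4:**
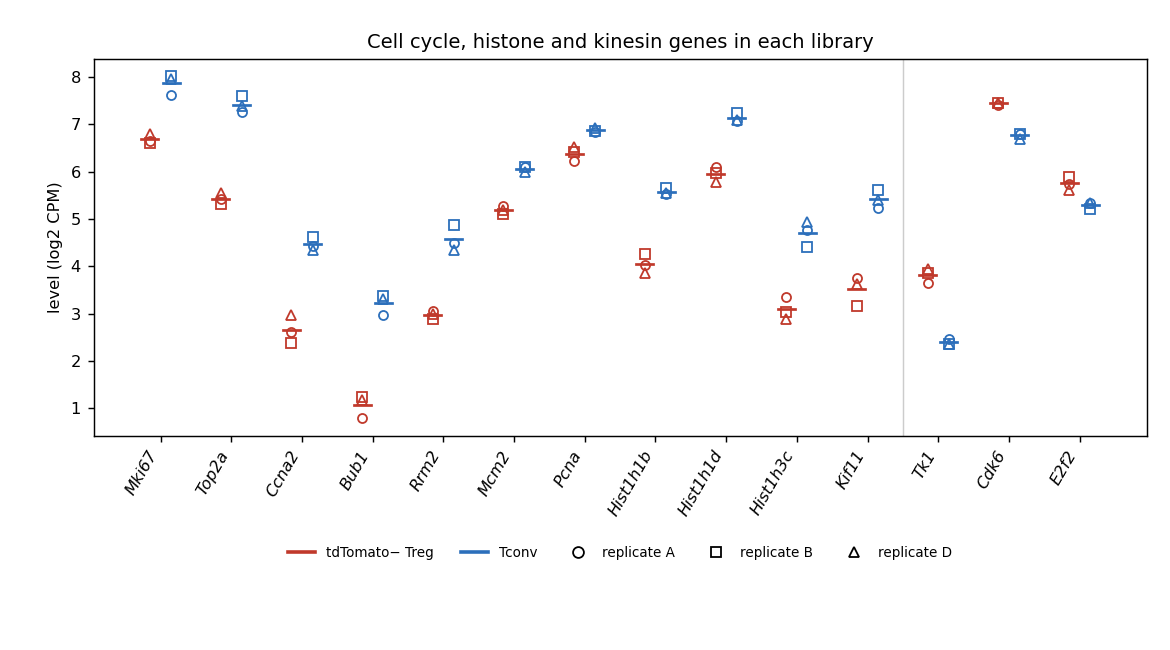
Levels (vertical axis, log2 CPM) of 14 cell cycle, histone and kinesin genes in each of the 6 libraries, with Treg in red, Tconv in blue, a symbol for each replicate and a bar for each mean. The first 11 genes are higher in every Tconv library than in every Treg library, and Tk1, Cdk6 and E2f2 are higher in Treg.

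Immediate early and heat shock genes varied with the letter as well as with the group. Of 23 tested, 11 rose, 3 fell and 9 did not pass, with a median of 0.41, and the 60.9% that passed is near the 52.6% of all genes. Jun was at 8.87, 8.64 and 9.34 in Treg A, B and D and at 6.59, 5.85 and 7.70 in Tconv (2.24, SE 0.39). Fosb was at 8.21, 8.0 and 9.55 against 4.84, 4.33 and 7.02 (3.19, SE 0.69). In both groups library D was highest and B lowest, and within each letter Treg was higher. Hspa1a, an inducible heat shock gene, was at 4.91, 4.25 and 6.76 in Treg and at 5.23, 4.50 and 7.36 in Tconv, with the same order of letters, and did not pass (-0.39, SE 0.86, adjusted p = 0.728). With the letters as a block it passed as lower (adjusted p = 0.00354 over 12 libraries), as did Hspa1b (-0.53, adjusted p = 0.00011). With that block the count of genes that fell was 7 in place of 3 over 12 libraries and 5 over 6, and it was 5 without Tconv A. The labels do not say what a letter marks, and the part of handling or dissociation in these genes was not tested.

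**Figure D5:**
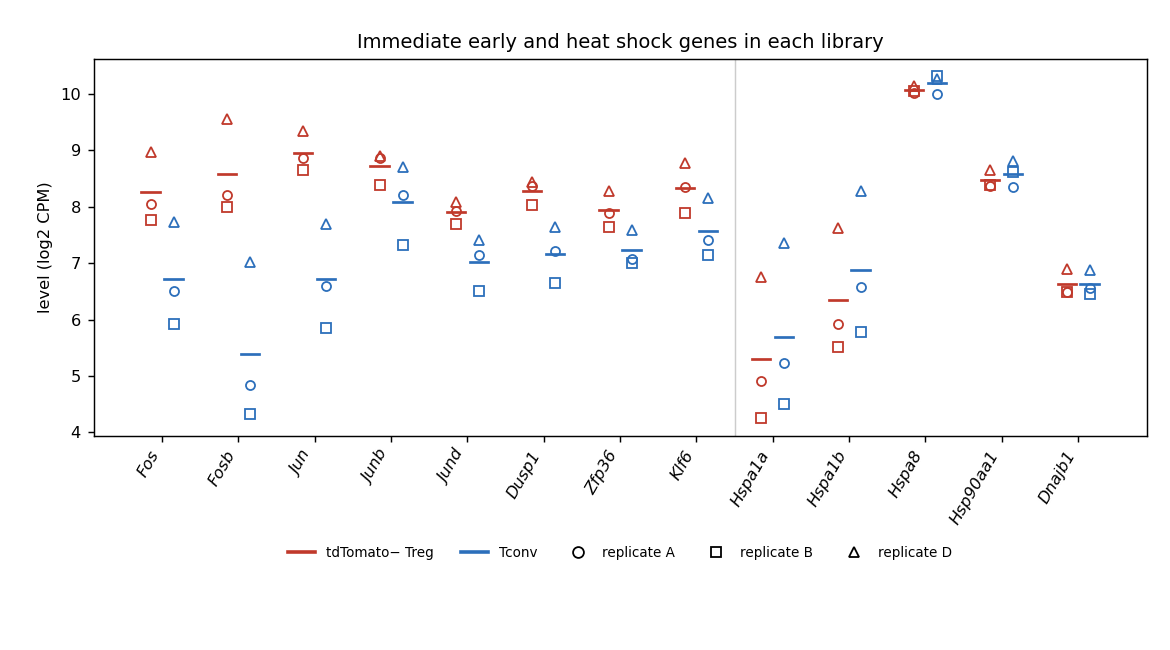
Levels (vertical axis, log2 CPM) of 13 immediate early and heat shock genes in each of the 6 libraries, with Treg in red, Tconv in blue, a symbol for each replicate and a bar for each mean. Replicate D (triangles) lies above A and B in both groups for Fos, Fosb, Jun, Hspa1a and Hspa1b.

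Interferon response genes moved both ways, with Oas genes among those that fell most. Of 34, 18 fell, 6 rose and 10 did not pass (70.6% passed, against 52.6% of all genes), with a median of -0.21. Oas2, a sensor of double-stranded RNA, was at 2.56, 2.90 and 2.81 in Treg and at 5.75, 5.70 and 5.77 in Tconv (-2.98, SE 0.13). Oasl2 (-1.32, SE 0.10), Oas3 (-1.05, SE 0.08), Isg15 (-0.89, SE 0.15) and Ddx58, the RNA sensor RIG-I (-0.72, SE 0.06), fell as well. Gbp3 went the other way, at 5.82, 5.87 and 5.90 in Treg and at 2.03, 2.31 and 2.2 in Tconv (3.68, SE 0.11), and Oas1a rose by 1.10 (SE 0.15).

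Metabolic gene groups held genes that rose and genes that fell. Of 24 tested glycolysis genes 12 rose and 9 fell, so that 87.5% passed, with a median of 0.09. The lactate exporter Slc16a3 rose by 2.98 (SE 0.15) and the glucose transporter Slc2a3 by 1.01 (SE 0.09), as did the enolases Eno2 by 2.80 (SE 0.19) and Eno3 by 1.66 (SE 0.13). The enolase Eno1 (-0.63, SE 0.05) and the pyruvate kinase Pkm (-0.38, SE 0.05) fell. Pdk1, a brake on pyruvate use in mitochondria, fell by 1.20 (SE 0.07). Sterol synthesis genes rose in 6 and fell in 2 of 25, so that 32% passed, below the 52.6% of all genes. Of 80 cytosolic ribosomal protein genes 28 rose and 7 fell, so that 43.8% passed, with a median of 0.04. Of the 80, 75 had a 95% interval within 0.5 of 0. Leaving out a library or another setting took the count that fell to between 3 and 12, with 3 without Tconv B and without Treg D, 4 without Treg A and without Treg B, 12 without Tconv A and 11 with the letters as a block over 12 libraries. Of 87 nuclear respiratory chain genes 7 rose and 19 fell, so that 29.9% passed. These became 4 higher without Treg A, Treg B or Tconv B, and 11 lower without Tconv B. Of 48 proteasome genes 4 rose and 9 fell, so that 27.1% passed. There were 2 higher without Treg B or Treg D, and 15 lower with the letters as a block over 12 libraries and 14 over 6. The shares of ribosomal, respiratory chain and proteasome genes that passed lie below the 52.6% of all genes.

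Markers of other cell types were checked in both groups. Summed over 9 B cell markers with values, the level was 36.5 to 43 CPM in Treg and 16.5 to 20.1 CPM in Tconv, most of it from Cd74, and Ighm and Igkc had no values. For 21 myeloid and dendritic markers it was 422 to 468 CPM against 349 to 423 CPM, with Ccr7, which T cells also express, the highest. Gene by gene, 6 of 12 tested markers of this list rose, among them Irf8, Ctss, Cst3 and Lyz2. Itgam and Ccr7 fell and 4 did not pass, with a median of 0.95. Of the 12, 66.7% passed, against 52.6% of all genes. The 6 became 3 with quantile normalisation and without Treg A. Clec9a, Siglech, Batf3 and Ccl17 had no values. For 6 erythroid markers it was 91.1 to 144 against 67.6 to 107 CPM, and for 5 thymic epithelial markers 33 to 34.8 against 31.9 to 36.5 CPM, with Foxn1, Krt5, Krt14, Psmb11 and Cldn3 without values. For 5 stromal markers it was 155 to 185 against 168 to 180 CPM, with Pecam1, which T cells also express, the highest. Col1a2, a collagen gene of that list, was at 0.44, 0.60 and 0.48 in Treg and at the level of 0 counts in every Tconv library. Genes of CD8 and double-positive cells summed to 122 to 139 against 115 to 118 CPM. Innate-like and NK markers summed to 10.3 to 11.7 against 18.5 to 22.4 CPM, with Zbtb16, the factor PLZF of innate-like T cells, at -1.07, -0.56 and 0.03 in Treg and at 2.87, 3.08 and 2.86 in Tconv. The sums of B cell and of CD8 and double-positive genes were higher in every Treg library than in every Tconv library, and those of innate-like genes higher in every Tconv library. Those of the myeloid, erythroid, epithelial and stromal markers overlapped. Their part in the results was not tested.

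The authors' deposited table of the same comparison calls 6558 genes at an adjusted p under 0.05, 3462 higher and 3096 lower in Treg. Of the 5797 genes called here, 5698 were also called in the authors' deposited table, all in the same direction.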

How the data were processed

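Per the labels' protocols, TRIzol was used for RNA of the sorted thymic CD4+ cells and KAPA RNA HyperPrep for the libraries. STAR and RSEM, limma and the mm10 build appear in the submitters' processing notes, and their versions are not given in the sources used here. Deposited by the authors were log2 CPM values with an offset of 0.5 count (read from the values), in 2 tables of 6 libraries that were filtered and normalised separately; the comparison lies within a single table. Of log2 fold changes and adjusted p-values that the authors deposited, only counts of calls are given, and the score they deposited per gene (a t statistic) was not used. The values are not counts, so no count model was used.

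Gene positions come from GENCODE M21. Of 12957 genes with values, 11027 reached a log2 CPM of 0 in 3 or more of the 6 libraries and were tested, and 1930 were not. limma 3.58.1 in R 4.3.3 was fitted to all 12 libraries with 4 group means, no block and an intensity trend. This holds for the 10996 tested genes with values in all 12. The other tested genes were fitted to the 6 libraries compared. Tests were two-sided, with Benjamini-Hochberg adjustment and a threshold of 0.05. Errors of levels are SD over 3 libraries. The script was tested on simulated data.

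Deviations from group means correlated at 0.269, 0.271 and 0.254 between libraries of the same letter, over 5517 genes. The letters were therefore taken as a possible pairing, but the main fit has no block. The SE, adjusted p and counts of that fit thus leave differences between letters in the spread. Blocked values are given where they change a call or move a count by over 1.5 times. The members and the 36 gene lists and 12 families were chosen with earlier results of these data known. Named genes are those of the sort, the 12 highest and 12 lowest changes above the median level without overlap, in each list the 4 members with the smallest p on either side, up to 8 genes seen in 1 group only and any member of lists with at most 15 genes. Not every gene that this rule takes is reported here. Alternatives were other filters, only the 6 libraries, the letters as a block, other scalings, other variance models and leaving out each library.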

Additional observations from a re-analysis of the deposited data

How the results depend on the processing

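With the letters as a replicate block the counts were 3083 higher and 3105 lower over 12 libraries and 3086 and 3100 over 6. Beyond the calls given above, and that of mt-Co3 given below, the pairing changed no call among the genes named in the report. Over the other settings the counts ran from 2520 higher and 3494 lower (quantile normalisation) to 3234 higher and 2894 lower (no filter, 12957 genes). Leaving out a library gave 2615 to 2752 higher and 2474 to 2604 lower. Requiring more than 2-fold as well left 1214 higher and 465 lower. The call of Lars2 (0.63, SE 0.22, adjusted p = 0.0255) was lost without Tconv B (0.32, adjusted p = 0.0884), without Treg A or Treg B and in a fit to the 6 libraries alone (adjusted p = 0.0574). It was also lost with quantile normalisation, with values under 0 raised to 0 (adjusted p = 0.25) and with a robust variance model (adjusted p = 0.0555). Depth limits genes near 3 counts, whose fold changes are bounds. The 3 libraries a group may be technical, and genes with near-identical copies are uncertain.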

Other observations

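Some steep changes belonged to genes not described above, named here after their values were seen, except Slc15a1, which the naming rule takes from the solute carriers. Ttn, which encodes the muscle protein titin, was at 8.92, 9.02 and 9.2 in tdTomato– Treg and at -0.49, -0.89 and -0.04 in Tconv, a change of 9.52 (SE 0.19), larger than that of Foxp3. Hdac9, a histone deacetylase, was at 6.2, 6.13 and 6.3 against -1.22, -0.77 and -1.08 (7.23, SE 0.15). On the side of Tconv, Chl1, a neural cell adhesion molecule, was at 0.19, 0.18 and 0.77 in Treg and at 5.36, 5.88 and 5.62 in Tconv (-5.24, SE 0.30). Slc15a1, a peptide transporter, changed by -5.12 (SE 0.39), Vipr1, the receptor for vasoactive intestinal peptide, by -3.89 (SE 0.12) and Acvrl1, a receptor of the TGF-β superfamily, by -3.95 (SE 0.19). In each of these 6 genes the groups did not overlap, as in 61.3% of all genes tested.

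The naming rule also takes Fam129a (4.81, SE 0.09), Dst (4.09, SE 0.07), a cytoskeletal linker, and Maf (4.05, SE 0.13), a transcription factor, among the highest changes of genes above the median level. Among the lowest it takes Sema4a (-3.10, SE 0.19), Stmn1 (-2.40, SE 0.11), a microtubule regulator, Gsn (-2.26, SE 0.13), an actin-severing protein, Itm2a (-2.12, SE 0.06), Tdrp (-2.10, SE 0.14), Maml2 (-2.01, SE 0.07), a Notch coactivator, and the myosin Myo10 (-2.01, SE 0.10). The rule takes only genes whose groups do not overlap, which holds for 61.3% of all genes tested.

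Among larger families, 180 tested solute carriers gave 66 higher and 42 lower, so that 60% passed, with a median of 0.08. The 39 phosphatases of the Ptpn, Ptpr and Dusp families gave 16 higher and 11 lower (69.2% passed). The phosphatases of MAP kinases moved apart: Dusp4 was at 7.69 ± 0.11 in Treg and 3.66 ± 0.44 in Tconv (4.03, SE 0.17), while Dusp6 fell by 1.14 (SE 0.10). Of 323 Zfp zinc finger genes 56 rose and 60 fell, and the 35.9% that passed lies below the 52.6% of all genes tested. Of 37 aminoacyl-tRNA synthetases, including Lars2, 5 rose and 9 fell, and the 37.8% that passed is also below that share. The 5 became 3 without Treg A, without Treg B and without Tconv B. Of 38 cytoskeleton and migration genes 14 rose and 11 fell (65.8% passed), of 41 Rab GTPases 13 and 7 (48.8%), and of 35 tripartite motif genes 11 and 11 (62.9%). These shares are not far from the 52.6% of all genes. Of 78 mitochondrial ribosomal protein genes 3 rose and 21 fell, so that 30.8% passed, below the share of all genes. The 21 became 12 without Tconv B and 13 without Treg D. The 3 became 0 without Tconv A and 1 without Treg A, Treg D or Tconv B. Of 13 mitochondrially encoded genes 2 fell, mt-Nd1 (-0.34) and mt-Nd6 (-0.49), and neither passed without Tconv B (-0.17, adjusted p = 0.0742, and -0.22, adjusted p = 0.132), nor with the variance model fitted without a trend (adjusted p = 0.0632 and 0.0798) or robustly (adjusted p = 0.0747 and 0.104); mt-Nd6 also did not pass without Treg A (-0.45, adjusted p = 0.0718). With the letters as a block over 6 libraries 3 of the 13 were higher. The same fit called mt-Co3 lower (-2.87, adjusted p = 3.5e-05), as did the block over 12 libraries (adjusted p = 0.0061). It did not pass without the block, except without Treg A (-3.85, adjusted p = 0.0357) or Tconv B (-3.69, adjusted p = 0.0407). Changes of the 13 genes ran from -2.87 to 3.5, and 15.4% of them passed in the main fit, against 52.6% of all genes.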
